A study of Mus musculus with 54 samples.

Results

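The sestrin genes Sesn1, Sesn2 and Sesn3 and the REDD genes Ddit4 and Ddit4l encode the stress-induced restraints of the kinase complex mTORC1. They were taken by symbol from the gene count table, where all 5 of 5 were present among 24421 genes and all 5 passed the filter on low counts that left 14320 genes. The group was chosen by earlier results of these data: Sesn2 and Ddit4l were lower with dmPGE2 than with vehicle in irradiated cells at 1 h, and Sesn2 was higher after radiation under dmPGE2 at 1 h. Those differences are therefore given below as descriptions with no test.

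mTORC1 drives protein synthesis, ribosome production and growth when amino acids and growth factors are plentiful, and its activity has to be kept low for hematopoietic stem cells (HSC) to remain quiescent. Sestrins hold it back on the amino acid side: SESN2 binds leucine and, when leucine is scarce, inhibits the GATOR2 complex, which keeps the Rag GTPases from recruiting mTORC1 to the lysosome. REDD1, the product of Ddit4, acts on the growth factor side through the TSC complex, which switches off the mTORC1 activator Rheb, and REDD2, the product of Ddit4l, is its paralog. Sesn1 and Sesn2 are known targets of the DNA damage factor p53, Ddit4 is induced by p53, hypoxia and glucocorticoids, and Sesn3 is a known target of FOXO factors.

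HSC came from Fgd5 mice on the C57BL/6 background, in which ZsGreen marks cells that transcribe Fgd5, and were sorted by SLAM-LSK(wide) gating and that reporter. Mice received 16,16-dimethyl prostaglandin E2 (dmPGE2), a long-lived analogue of prostaglandin E2, or its vehicle, ethanol, by subcutaneous injection, and irradiated mice then received 8.53 Gy after 30 min. Libraries were made from HSC of irradiated dmPGE2 mice at 24 h (n = 8), irradiated vehicle mice at 24 h (n = 8), irradiated dmPGE2 mice at 1 h (n = 8), irradiated vehicle mice at 1 h (n = 8), non-irradiated dmPGE2 mice at 1 h (n = 7) and non-irradiated vehicle mice (n = 15). The labels split the last group into 8 mice at 1 h and 7 at 24 h, but the table names no time for its columns, so they form 1 pooled baseline. The dmPGE2 dose is uncertain, since the labels give 35 µg and also 3.5 µL of a 0.1 mg/ml solution, which would hold 0.35 µg.

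Total counts ran from 15049364 to 26217041 per library. Genes that mark HSC were present throughout: Kit, the stem cell factor receptor gene, had 497 to 1990 CPM (counts scaled to library size), and Fgd5 had 41.8 to 124 CPM. The column headers carry 12 tags that the labels do not explain. All 12 occur in several groups and 5 of them on libraries of both sexes. These are the tags 6-16, 6-28, 6-30 and 7-6 of the 24 h irradiated libraries, and tag 5-1. Both baseline libraries of tag 5-1 had more reads of the Y-linked gene Ddx3y than of Xist, and its other libraries had the reverse. Among the 15 baseline libraries 7 tags occur on 2 libraries each, and whether such libraries share an animal is not stated. Such pairs deviated together from the group mean (median Pearson's r 0.387, against -0.1275 for other pairs). The main fit takes all 15 libraries as independent. Xist exceeded the Y-linked gene Ddx3y in 5 baseline libraries where the labels name 7 females, while the other 5 groups matched their labels. In 3 irradiated groups 1 library stood apart in the members: library 5 with dmPGE2 at 24 h, library 6 with dmPGE2 at 1 h and library 3 with vehicle at 1 h. The 24 h irradiated libraries share no tag or header number with the 1 h libraries, so time and these cannot be told apart.

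The sequences just upstream of the genes called in any main comparison are shown. Several known regulators of these genes bind short DNA motifs near start sites. Sesn1 is among them only for its call in irradiated dmPGE2 HSC, 24 h against 1 h, which was lost against a fold change of 1.5. RefSeq's table (GRCm38.p6) held 6 start sites for the 5 genes, 2 of them for Sesn1, and the 250 bases before each were searched on both strands for 9 motifs. Capitals mark matches to a motif. They are the p53 motif (a single decamer), TGACG and CCAAT in Sesn1, whose second start is shown, CCAAT at 2 places in Sesn2, ACGTG and then CCAAT at 2 places in Ddit4, and the p53 motif in Ddit4l. A CCAAT match reads ATTGG where it lies on the other strand. The window of the first Sesn1 start, which is not shown, held only a CCAAT match.
Sesn1: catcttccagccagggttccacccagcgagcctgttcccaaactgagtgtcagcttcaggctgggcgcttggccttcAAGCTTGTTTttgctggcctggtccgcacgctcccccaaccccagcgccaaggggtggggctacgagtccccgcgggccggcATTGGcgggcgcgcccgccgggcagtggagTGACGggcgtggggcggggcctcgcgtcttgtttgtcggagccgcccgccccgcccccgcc
Sesn2: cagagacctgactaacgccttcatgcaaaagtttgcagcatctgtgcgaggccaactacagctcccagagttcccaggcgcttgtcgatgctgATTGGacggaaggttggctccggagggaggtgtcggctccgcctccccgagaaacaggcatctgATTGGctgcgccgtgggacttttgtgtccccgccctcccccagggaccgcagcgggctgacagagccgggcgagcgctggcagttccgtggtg
Ddit4: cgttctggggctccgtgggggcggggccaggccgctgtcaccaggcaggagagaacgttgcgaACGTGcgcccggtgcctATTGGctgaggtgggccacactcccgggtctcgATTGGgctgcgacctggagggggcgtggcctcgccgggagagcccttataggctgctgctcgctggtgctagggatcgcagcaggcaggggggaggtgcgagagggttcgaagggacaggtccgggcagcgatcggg
Ddit4l: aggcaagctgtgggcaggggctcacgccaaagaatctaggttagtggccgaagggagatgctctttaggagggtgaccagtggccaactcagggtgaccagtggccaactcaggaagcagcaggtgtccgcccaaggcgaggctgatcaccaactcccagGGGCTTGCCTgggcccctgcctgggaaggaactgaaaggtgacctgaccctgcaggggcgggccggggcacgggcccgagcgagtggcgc
These windows are chr10:41887189-41887438 on the plus strand for Sesn1, chr4:132510457-132510706 on the minus strand for Sesn2, chr10:59951771-59952020 on the minus strand for Ddit4 and chr3:137623422-137623671 on the plus strand for Ddit4l.

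The p53 motif began 173 bases before the second Sesn1 start and 90 bases before the Ddit4l start, and 7.1% of 32851 promoters held one. It had no match in the windows of the first Sesn1 start, Sesn2, Sesn3 or Ddit4. The hypoxia response element ACGTG lay 187 bases before the Ddit4 start (16.6% of promoters), and TGACG, the short form of the cAMP response element, lay 61 bases before the second Sesn1 start (17.8%). CCAAT, which 33.8% of promoters held, matched in every window but that of Ddit4l. No member window held TGACGTCA (1.5% of promoters), TGATGNAAN (3.4%), GTAAACA (3.2%), TGTTCT (16.1%) or TATAAA (12.4%). The genes span chr10:41810574-41908436 (Sesn1, plus strand), chr4:132492807-132510456 (Sesn2, minus), chr9:14276301-14326134 (Sesn3, plus), chr10:59949675-59951770 (Ddit4, minus) and chr3:137623672-137628332 (Ddit4l, plus) in the mm10 coordinates of the table. A match is only a run of letters, and a window without one says nothing of the factor.

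The first comparison asked what radiation did to the restraints without dmPGE2, 1 h after exposure. Sesn2, Ddit4l and Ddit4 were all higher in irradiated vehicle HSC than in the baseline, by 17.1-fold, 53-fold and 5.8-fold. Sesn1 and Sesn3 were not called. In bulk RNA, more or fewer cells that express a gene and more or less of its RNA per cell cannot be told apart. The irradiated vehicle libraries of 1 h also took part in the contrast by which the genes were chosen.

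Sesn2, whose protein is the leucine-sensing sestrin, had 386 CPM in the lowest, 560 in the median and 617 in the highest of the 8 irradiated vehicle libraries at 1 h, against 21.7, 30.2 and 47 CPM in the 15 baseline libraries. The groups did not overlap. The log2 fold change was 4.10 (SE 0.13, adjusted p = 4.72e-33, edgeR). Ddit4l, the REDD2 gene, had 41.2, 55.7 and 73.4 CPM in irradiated vehicle HSC at 1 h, against 0.0854, 1.01 and 2.93 CPM in the baseline. It was close to silent in the baseline, where single libraries held 2 to 76 reads of it, and again the groups did not overlap. The log2 fold change was 5.73 (SE 0.33, adjusted p = 2.02e-20).

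Ddit4, the REDD1 gene, had 83.7, 98.2 and 114 CPM in irradiated vehicle HSC at 1 h, against 7.59, 15.5 and 46.4 CPM in the baseline. All 8 irradiated libraries lay above the highest baseline library, which stood well above the other 14. The log2 fold change was 2.54 (SE 0.29, adjusted p = 6.33e-10). Of the 5 genes, 3 were higher, 0 lower and 2 not called with edgeR (3 at an unadjusted p below 0.05, and 3 higher with DESeq2), beside 8.65% of all genes tested called higher and 7.31% called lower.

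Sesn1, the most abundant sestrin of the baseline per length, had 172, 219 and 391 CPM in irradiated vehicle HSC at 1 h, against 228, 279 and 338 CPM in the baseline. The ranges overlapped (log2 fold change -0.21, SE 0.13, adjusted p = 0.301). Library 3 held the 391 CPM, and without it the difference was called (-0.35, adjusted p = 0.042). Sesn3 had 8.05 to 16.6 CPM in irradiated vehicle HSC at 1 h and 5.40 to 16.2 CPM in the baseline, with overlapping ranges (log2 fold change 0.22, SE 0.19, adjusted p = 0.508).

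**Figure D1:**
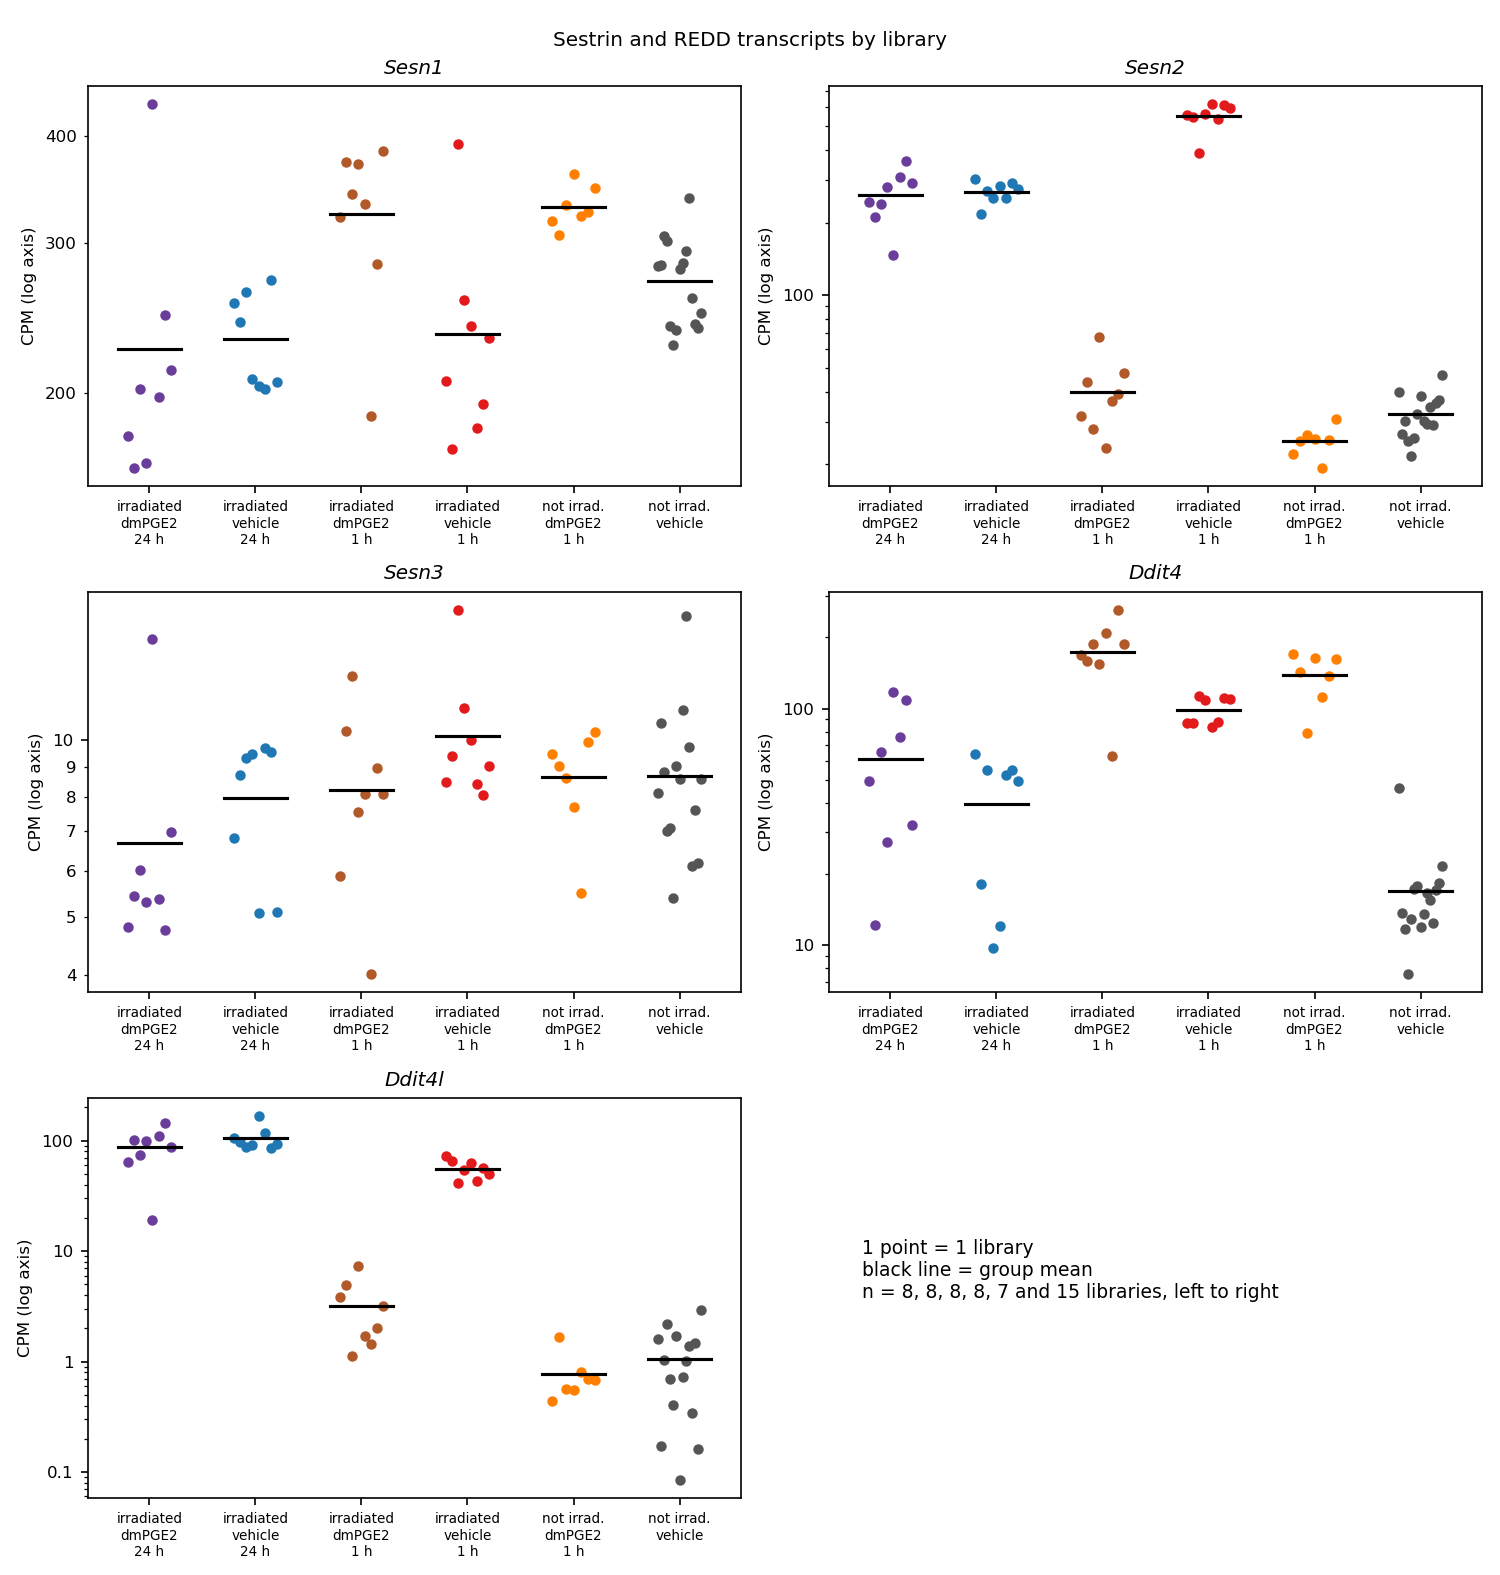
CPM of the 5 genes on log axes, with 1 point per library and a black line at the group mean (n = 8, 8, 8, 8, 7 and 15, left to right). Sesn2 and Ddit4l are high in irradiated vehicle HSC at 1 h and in both irradiated groups at 24 h; Ddit4 is high in the 3 groups of 1 h that had dmPGE2, radiation or both.

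The second comparison asked the same at 24 h. Sesn2 and Ddit4l were still 8.33-fold and 100-fold above the baseline in irradiated vehicle HSC, and Ddit4 was 2.33-fold above it. This comparison and the first share the baseline libraries, with which the 24 h irradiated libraries share no tag. Of the 5 genes, 3 were higher, 0 lower and 2 not called with edgeR (3 at an unadjusted p below 0.05, and 3 higher with DESeq2), in a contrast where 23.3% of all genes were called higher and 26.5% lower.

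Sesn2 had 217, 273 and 303 CPM (lowest, median, highest) in irradiated vehicle HSC at 24 h, each far above the baseline maximum of 47 CPM (log2 fold change 3.06, SE 0.13, adjusted p = 6.66e-28). Ddit4l had 85.5, 95.6 and 167 CPM, against at most 2.93 CPM in the baseline (log2 fold change 6.65, SE 0.34, adjusted p = 6.26e-23). Neither gene's groups overlapped. Ddit4 had 9.72, 51 and 64.2 CPM in irradiated vehicle HSC at 24 h. Here 3 of 8 libraries lay between 9.72 and 18.1 CPM, inside the baseline range, and the other 5 lay between 49.4 and 64.2 CPM, above all 15 baseline libraries (log2 fold change 1.22, SE 0.29, adjusted p = 0.000411). Sesn1 (log2 fold change -0.23, SE 0.13, adjusted p = 0.131) and Sesn3 (-0.13, SE 0.19, adjusted p = 0.61) overlapped the baseline. The fit of only the groups compared called Sesn1 lower (-0.23, adjusted p = 0.0113).

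Between the irradiated vehicle groups, the 3 induced genes took different courses. Sesn2 and Ddit4l were chosen partly for being high in the vehicle libraries of 1 h used here, which favours lower values at 24 h. At 24 h Sesn2 was lower than at 1 h, with no overlap of 217 to 303 CPM at 24 h and 386 to 617 CPM at 1 h (log2 fold change -1.04, SE 0.15, adjusted p = 4.87e-08). Ddit4 was lower as well (-1.32, SE 0.34, adjusted p = 0.00103), and the 64.2 CPM of its highest library at 24 h lay below the 83.7 CPM of its lowest at 1 h. Ddit4l went the other way and was higher at 24 h, again with no overlap (0.92, SE 0.34, adjusted p = 0.0207). That call was lost against a fold change of 1.5 (adjusted p = 0.251). Of the 5 genes, 1 was higher, 2 lower and 2 not called (3 at an unadjusted p below 0.05), beside 23.4% of all genes called higher and 27.5% lower. Sesn1 (-0.02, SE 0.14) and Sesn3 (-0.35, SE 0.22) were not called.

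The third comparison asked what dmPGE2 did without radiation. Ddit4 was 8.13-fold higher in non-irradiated dmPGE2 HSC at 1 h than in the baseline, and the other 4 genes were not called. Ddit4 had 79.2, 143 and 170 CPM in the 7 dmPGE2 libraries, against 7.59, 15.5 and 46.4 CPM in the baseline. The groups did not overlap (log2 fold change 3.02, SE 0.29, adjusted p = 1.88e-11). By edgeR's test 1 of 5 genes was higher and 0 lower (3 at an unadjusted p below 0.05, and 1 higher with DESeq2), beside 5.28% of all genes called higher and 5.82% lower.

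Sesn2 had 19.4, 25.3 and 30.7 CPM in non-irradiated dmPGE2 HSC, against 21.7, 30.2 and 47 CPM in the baseline. The ranges overlapped, and the difference missed the threshold (log2 fold change -0.37, SE 0.14, adjusted p = 0.079). It was called against the 8 baseline columns with header numbers 42 to 70 alone (-0.50, adjusted p = 0.0297) and in a fit of only the groups compared (-0.37, adjusted p = 0.0442). Sesn2 was chosen partly for being lower in these non-irradiated dmPGE2 libraries than in irradiated ones. That favours lower values here, so its p-values are not independent of the choice. Sesn1 had 306 to 362 CPM in dmPGE2 HSC and 228 to 338 CPM in the baseline (0.29, SE 0.13, adjusted p = 0.156), which the fit of only the groups compared called (0.30, adjusted p = 0.00267). Sesn3 (-0.01, SE 0.20) and Ddit4l (-0.44, SE 0.43) were not called under any alternative run.

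The contrast that chose the genes set dmPGE2 against vehicle in irradiated HSC at 1 h, and here no test was made on the members. Sesn2 had 23.3, 37.9 and 67 CPM in irradiated dmPGE2 HSC, against 386, 560 and 617 CPM in irradiated vehicle HSC, a log2 difference of -3.80 ± 0.16 (SE), or 13.9-fold lower. Ddit4l had 1.13, 2.60 and 7.36 CPM, against 41.2, 55.7 and 73.4 CPM with vehicle (-4.13 ± 0.39, 17.5-fold lower). No library of either gene overlapped between these groups. Ddit4 had 62.9, 178 and 261 CPM in irradiated dmPGE2 HSC, against 83.7, 98.2 and 114 CPM with vehicle (0.82 ± 0.33). In 7 of 8 dmPGE2 libraries Ddit4 lay above the highest vehicle library, and library 6 lay below the lowest. Sesn1 (0.47 ± 0.14) was on average higher and Sesn3 (-0.31 ± 0.22) lower, with overlapping ranges. In this contrast 7.04% of all genes were called higher and 7.77% lower.

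With dmPGE2, the irradiated HSC of 1 h were next set against the baseline. These irradiated libraries took part in the contrasts by which Sesn2 and Ddit4l were chosen, so the p-values of both are not independent of the choice. Sesn2 at 23.3 to 67 CPM was not called against 21.7 to 47 CPM in the baseline (log2 fold change 0.30, SE 0.13, adjusted p = 0.104), and only 2 of 8 irradiated libraries lay above the highest baseline library. Against the 7 baseline columns with header numbers 79 to 85 alone it was called (0.47, adjusted p = 0.0301). Ddit4l at 1.13 to 7.36 CPM was 3.03-fold higher than in the baseline (1.60, SE 0.34, adjusted p = 0.000342), and 4 of 8 irradiated libraries exceeded the baseline maximum of 2.93 CPM. Ddit4 was 10.2-fold higher (3.36, SE 0.29, adjusted p = 1.8e-13), with no overlap. With edgeR, 2 of 5 genes were higher and 0 lower (4 at an unadjusted p below 0.05, and 2 higher with DESeq2), beside 9.55% of all genes called higher and 8.76% lower. Sesn1 (0.26, SE 0.12, adjusted p = 0.141) was not called. It was called without library 6 of the dmPGE2 group (0.35, adjusted p = 0.0377), and with all 8 libraries in a fit of only the groups compared (0.26, adjusted p = 0.0457). Sesn3 (-0.08, SE 0.19) was not called.

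Radiation under dmPGE2, with non-irradiated dmPGE2 HSC as the comparison, left Ddit4l 4.12-fold higher at 1 h. Ddit4l had 1.13, 2.60 and 7.36 CPM in irradiated dmPGE2 HSC, against 0.435, 0.677 and 1.67 CPM in non-irradiated dmPGE2 HSC. The ranges overlapped, with 6 of 8 irradiated libraries above the highest non-irradiated one (log2 fold change 2.04, SE 0.45, adjusted p = 0.0108). Against a fold change of 1.5 the call was lost (adjusted p = 0.118). The irradiated dmPGE2 libraries took part in the contrast by which Ddit4l was chosen, so its p-values are not independent of the choice. Sesn2, which was chosen partly on this contrast, had 39.6 ± 13.7 CPM (SD, n = 8) in irradiated and 24.9 ± 3.53 CPM (n = 7) in non-irradiated dmPGE2 HSC, a log2 difference of 0.67 ± 0.16 (SE).

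Ddit4 had 174 ± 56.2 CPM (SD, n = 8) in irradiated and 138 ± 32.6 CPM (n = 7) in non-irradiated dmPGE2 HSC, and the ranges overlapped (log2 fold change 0.33, SE 0.35, adjusted p = 1). Sesn1 (-0.03, SE 0.15) and Sesn3 (-0.07, SE 0.23) also overlapped. Of the 4 genes tested, 1 was higher and 0 lower with edgeR (1 at an unadjusted p below 0.05, and 1 higher with DESeq2), in a contrast where 0.356% of all genes were called higher and 0.0209% lower. As a description only, the radiation difference under dmPGE2 minus that under vehicle was -3.43 ± 0.20 for Sesn2, -3.69 ± 0.57 for Ddit4l and -2.20 ± 0.45 for Ddit4 on the log2 scale. For Sesn1 it was 0.18 ± 0.19 and for Sesn3 -0.30 ± 0.29.

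**Figure D2:**
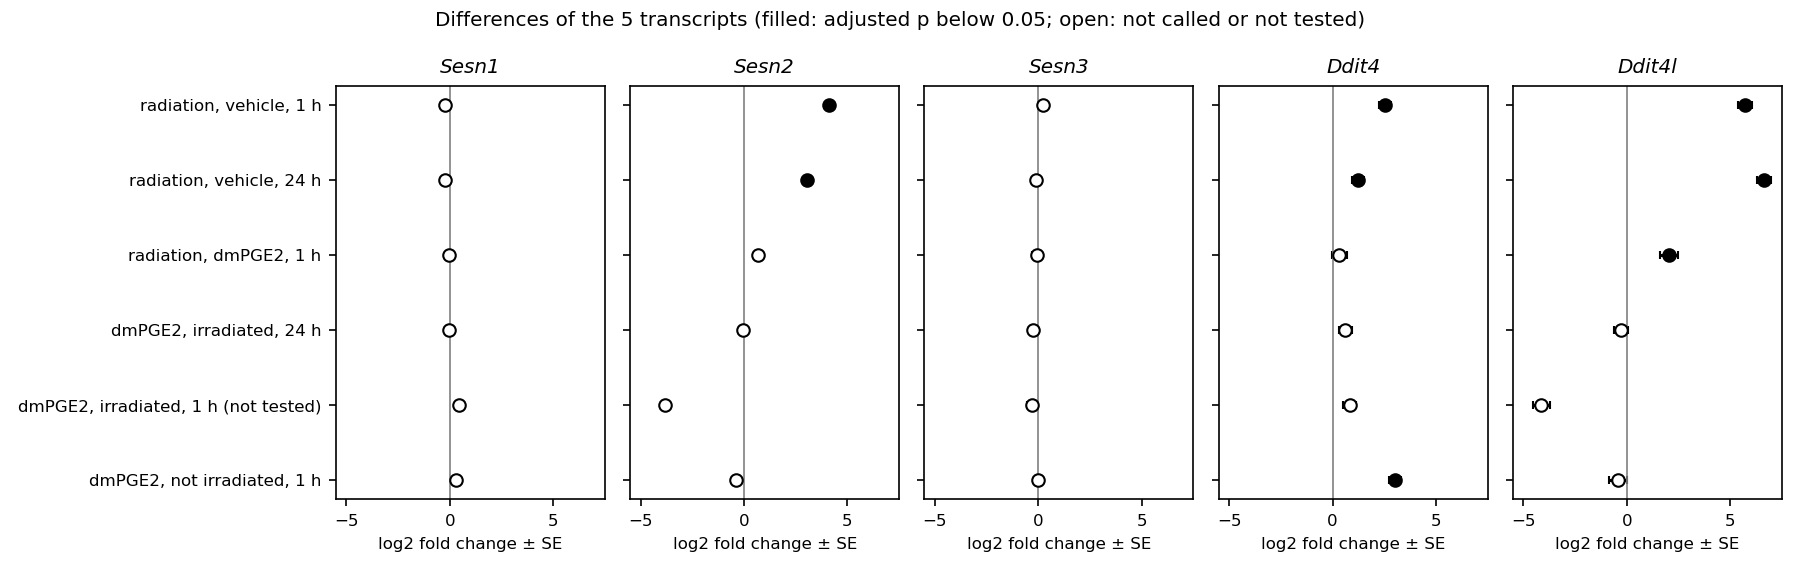
Log2 fold change (point) and standard error (bar) of each gene in 6 comparisons. Filled points passed an adjusted p of 0.05 and open points did not or were not tested, as were all genes for dmPGE2 in irradiated HSC at 1 h and Sesn2 for radiation under dmPGE2; Sesn1 and Sesn3 have no filled point.

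At 24 h, irradiated dmPGE2 HSC were set against irradiated vehicle HSC of the same time. None of the 5 genes was called by edgeR (0 at an unadjusted p below 0.05, and 0 with DESeq2), beside 12.4% of all genes called higher and 11.5% lower. Sesn2 had 147, 261 and 358 CPM with dmPGE2, against 217, 273 and 303 CPM with vehicle. Ddit4l had 19.1, 93.9 and 143 CPM with dmPGE2, against 85.5, 95.6 and 167 CPM with vehicle. The ranges overlapped for both. The log2 fold change of Sesn2 was -0.05 with a 95% interval of -0.34 to 0.25 (adjusted p = 0.851), and that of Ddit4l was -0.27 with an interval of -0.95 to 0.40 (adjusted p = 0.611).

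Ddit4 had 12.2, 57.4 and 118 CPM with dmPGE2 at 24 h, against 9.72, 51 and 64.2 CPM with vehicle, and both groups spread widely, with a coefficient of variation of 62.4% and 56.3% (log2 fold change 0.63, SE 0.34, interval -0.05 to 1.30, adjusted p = 0.178). Without libraries 5 to 7 of the dmPGE2 group, left out after their values were seen, the sign of the Ddit4 difference turned (-0.09, adjusted p = 0.926). Sesn1 had 164 to 436 CPM with dmPGE2 and 202 to 271 CPM with vehicle (-0.04, SE 0.14). Sesn3 had 4.75 to 14.8 CPM with dmPGE2 and 5.09 to 9.70 CPM with vehicle (-0.25, SE 0.22). Library 5 of the dmPGE2 group, from a male, held the highest Sesn1, Sesn3 and Ddit4 and the lowest Sesn2 and Ddit4l of that group. The header gives sex at 24 h, and the medians for Sesn2 were 241 CPM in females and 300.3 CPM in males with dmPGE2, against 262 CPM in females and 280 CPM in males with vehicle (n = 4 each).

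Against the baseline, the irradiated dmPGE2 HSC of 24 h had 8.06-fold more Sesn2 (log2 fold change 3.01, SE 0.13, adjusted p = 1.84e-27) and 82.9-fold more Ddit4l (6.37, SE 0.34, adjusted p = 2.77e-22). No library of either gene overlapped. Ddit4 was 3.59-fold higher (1.84, SE 0.29, adjusted p = 9.17e-07). With edgeR, 3 of 5 genes were higher and 0 lower (4 at an unadjusted p below 0.05, and 3 higher with DESeq2), beside 19% of all genes called higher and 17.3% lower. Sesn1 (-0.26, SE 0.13, adjusted p = 0.0942) and Sesn3 (-0.38, SE 0.19, adjusted p = 0.121) missed the threshold with all 8 libraries, and without library 5 both were called lower, at -0.48 (adjusted p = 0.000413) and -0.66 (adjusted p = 0.00356).

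Within the irradiated dmPGE2 mice, 24 h against 1 h, Ddit4l and Sesn2 were higher and Ddit4 and Sesn1 lower. Sesn2 and Ddit4l were chosen for being low in the same irradiated dmPGE2 libraries of 1 h, which favours higher values at 24 h, so these p-values are not independent of the choice. Ddit4l was 27.3-fold higher at 24 h (log2 fold change 4.77, SE 0.40, adjusted p = 3.47e-14), and Sesn2 was 6.55-fold higher (2.71, SE 0.16, adjusted p = 5.83e-21). The 147 CPM of the lowest Sesn2 library at 24 h exceeded the 67 CPM of the highest at 1 h, and for Ddit4l 19.1 CPM exceeded 7.36 CPM. Ddit4 was lower at 24 h (-1.51, SE 0.34, adjusted p = 0.000367) with overlapping ranges. Sesn1 was lower too (-0.53, SE 0.14, adjusted p = 0.00259), at 225 ± 89.3 CPM at 24 h and 324 ± 64.2 CPM at 1 h (SD, n = 8 each), a call lost against a fold change of 1.5 (adjusted p = 1). Thus 2 of 5 genes were higher and 2 lower (4 at an unadjusted p below 0.05), beside 18.1% of all genes called higher and 18.2% lower. Sesn3 was not called (-0.30, SE 0.22, adjusted p = 0.299) and was called lower without library 5 (-0.58, adjusted p = 0.0196). As a description, the dmPGE2 difference at 24 h minus that at 1 h was 3.75 ± 0.22 for Sesn2, 3.86 ± 0.50 for Ddit4l, -0.51 ± 0.20 for Sesn1, -0.19 ± 0.47 for Ddit4 and 0.05 ± 0.31 for Sesn3.

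Ordered by mean level over the 6 groups, Sesn2 ran down in CPM through irradiated vehicle at 1 h (552 ± 73.7), irradiated vehicle at 24 h (269 ± 27.3), irradiated dmPGE2 at 24 h (260 ± 64.8), irradiated dmPGE2 at 1 h (39.6 ± 13.7), baseline (32.2 ± 6.63) and non-irradiated dmPGE2 (24.9 ± 3.53; SD throughout). Of these neighbours, the groups of 24 h, irradiated dmPGE2 at 1 h and the baseline, and the baseline and non-irradiated dmPGE2 were not called in edgeR. The 95% interval still excluded 0 for irradiated dmPGE2 at 1 h minus the baseline (0.04 to 0.56). It also did so for non-irradiated dmPGE2 minus the baseline (-0.65 to -0.09). Ddit4l ran through irradiated vehicle at 24 h (106 ± 26.8), irradiated dmPGE2 at 24 h (87.6 ± 36.7), irradiated vehicle at 1 h (56 ± 11), irradiated dmPGE2 at 1 h (3.21 ± 2.13), baseline (1.06 ± 0.821) and non-irradiated dmPGE2 (0.771 ± 0.415). Its first pair and its last pair were not called, and the second with the third overlapped and was not tested.

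Ddit4 had another order, through irradiated dmPGE2 at 1 h (174 ± 56.2), non-irradiated dmPGE2 (138 ± 32.6), irradiated vehicle at 1 h (98.6 ± 13.2), irradiated dmPGE2 at 24 h (61.1 ± 38.1), irradiated vehicle at 24 h (39.5 ± 22.3) and baseline (17.0 ± 8.82). The last step was called, the steps between the groups given dmPGE2 at 1 h and between the groups of 24 h were not, and the other neighbours overlapped and were not tested. Sesn1 stayed between 225 ± 89.3 CPM in irradiated dmPGE2 HSC at 24 h and 330.4 ± 18.8 CPM in non-irradiated dmPGE2 HSC, with no called difference between neighbours. Sesn3 stayed between 6.69 ± 3.36 and 10.2 ± 2.80 CPM, and its ranges overlapped in every pair of groups.

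Levels of different genes can be compared only per length, as CPM per kilobase of exon (RPKM). On that scale Sesn2 made up 58.6% of the summed sestrin level in irradiated dmPGE2 HSC at 24 h, 58.1% in irradiated vehicle HSC at 24 h, 13.1% in irradiated dmPGE2 HSC at 1 h, 73.5% in irradiated vehicle HSC at 1 h, 8.34% in non-irradiated dmPGE2 HSC and 12.6% in the baseline. The sestrin sum was 283 ± 18.4 RPKM in irradiated vehicle HSC at 1 h and 97.1 ± 10.4 RPKM in the baseline (SD, n = 8 and 15). Sesn1 led the sestrins in every group without radiation and in irradiated dmPGE2 HSC at 1 h, and Sesn2 led them in the other 3. Sesn3 had the lowest mean level of the sestrins in all 6 groups, at 3.10 to 4.71 RPKM.

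For the REDD pair, Ddit4l made up 50.4% of the summed level in irradiated dmPGE2 HSC at 24 h, 64.1% in irradiated vehicle HSC at 24 h, 1.24% in irradiated dmPGE2 HSC at 1 h, 26.2% in irradiated vehicle HSC at 1 h, 0.363% in non-irradiated dmPGE2 HSC and 4.06% in the baseline. The REDD sum was 104 ± 33.3 RPKM in irradiated dmPGE2 HSC at 1 h, 79.1 ± 6.47 RPKM in irradiated vehicle HSC at 1 h and 82.2 ± 19.3 RPKM in non-irradiated dmPGE2 HSC, against 10.45 ± 5.32 RPKM in the baseline. Ddit4 made up most of the sum in each of these groups.

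**Figure D3:**
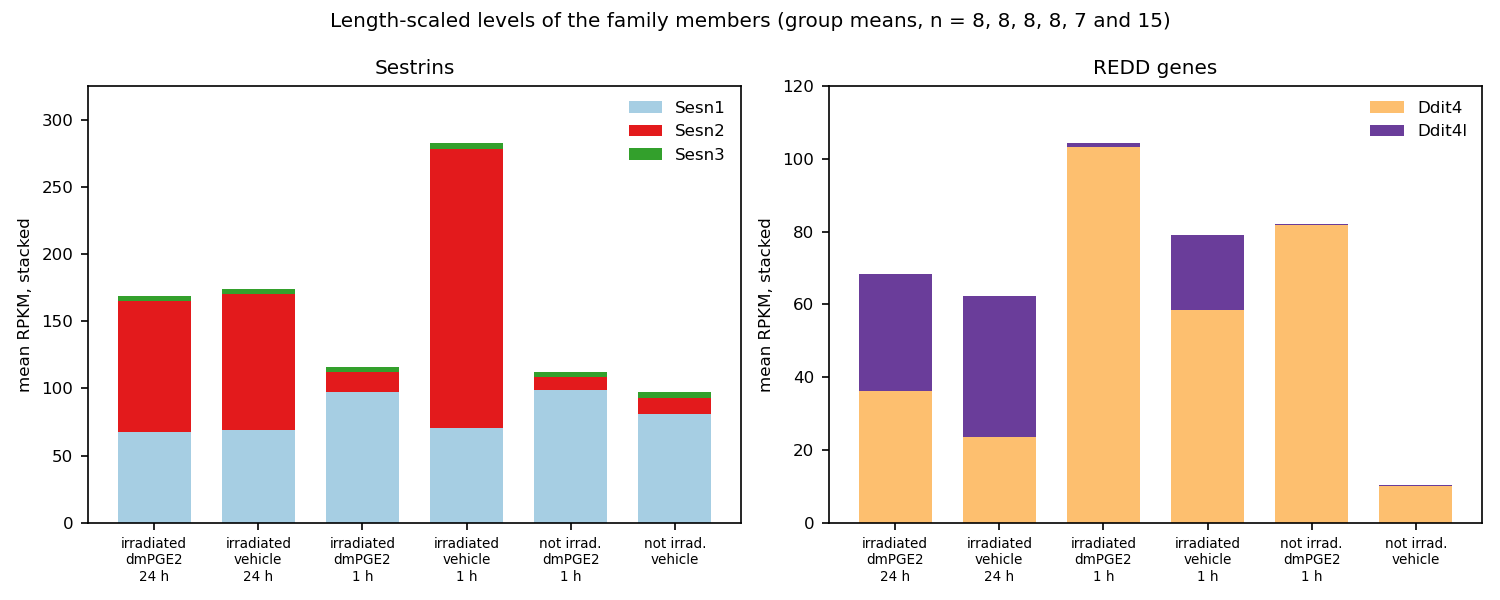
Mean RPKM of the sestrins (left) and REDD genes (right), stacked, for the 6 groups (n = 8, 8, 8, 8, 7 and 15). Sesn2 forms most of the sestrin bar where Ddit4l forms a visible share of the REDD bar, and the REDD bar is shortest in the baseline.

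The genes most like each member were ranked by Pearson's r of log2 CPM over the 54 libraries among 10764 genes. These libraries fall into separate groups and share depth and processing, so r mainly orders genes by how the groups differ, and it is a description. The closest to Sesn2 were Bbc3, which encodes the pro-apoptotic p53 target PUMA (0.982), Tob1, Mdm2, Slc19a2 and Ddias. The closest to Ddit4l were Phlda3, an Akt inhibitor gene under p53 (0.968), Tnfsf4, Ccng1, Fam212b and Mdm2. The closest to Ddit4 were the cAMP-induced kinase gene Sik1 (0.852), Mcl1, Gpr132, Dyrk3 and Dusp2.

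Sesn1 was closest to Klf3 (0.807), Cmas, Myct1, Tspan13 and Rgs2, and Sesn3 to Daam1 (0.651), Sepp1, Pcmtd2, Acadm and Tspan13. With each group's mean taken out, r fell to 0.525 for Sesn2 with Bbc3, 0.425 for Ddit4l with Phlda3 and 0.521 for Ddit4 with Sik1, but was 0.687 for Sesn1 with Klf3. Between members on that scale it was 0.457 for Sesn2 with Ddit4l and 0.67 for Sesn1 with Sesn3, and -0.043 for Ddit4 with Ddit4l.

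**Figure D4:**
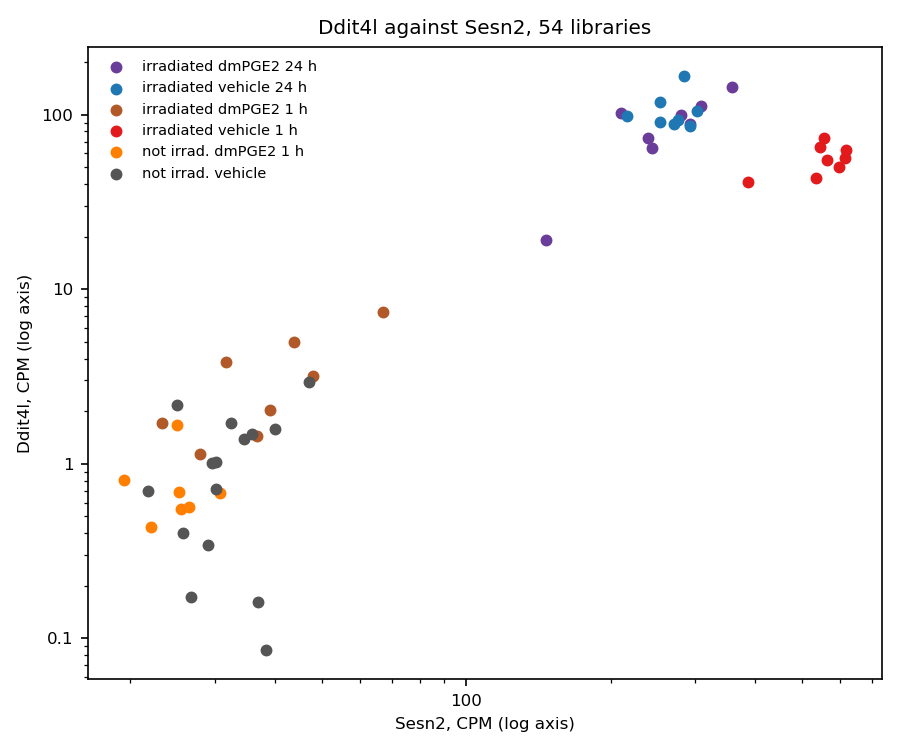
Ddit4l against Sesn2 in CPM on log axes, with 1 point per library. The 24 libraries of irradiated vehicle HSC at both times and irradiated dmPGE2 HSC at 24 h lie at 147 CPM of Sesn2 and above, and the other 30 lie at 67 CPM and below.

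The genes of the pathway itself came next, in lists without the 5 members. The first contrast was irradiated vehicle HSC at 1 h against the baseline, in which 8.65% of all genes were called higher and 7.31% lower. Of 11 mTORC1 and mTORC2 subunit genes, 1 was higher (Rictor, the defining mTORC2 subunit, log2 fold change 0.22, SE 0.07), 0 lower and 10 not called, with a median of -0.05 beside -0.003 for all genes. Of 9 genes in the TSC and Rheb list, 1 was higher (Rheb, 0.23, SE 0.07) and 1 lower (Txnip, a REDD1 partner, -0.53, SE 0.13), with a median of -0.03. That list also holds Txnip, Ywhab, Ywhae and Ywhaz, which encode neither TSC subunits nor Rheb. Of 26 GATOR, KICSTOR, Rag and Ragulator genes, 2 were higher, led by the folliculin gene Flcn (0.43, SE 0.07), and 5 lower, led by the Ragulator gene Lamtor4 (-0.56, SE 0.10), with a median of -0.04.

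Among 22 PI3K, Akt and AMPK genes, 5 were higher, led by the insulin receptor substrate gene Irs2 (1.147, SE 0.27), and 1 lower, the AMPK-activating kinase gene Stk11 (-0.79, SE 0.19), with a median of 0.03. Of 16 mTORC1 substrates and effectors, 4 were higher, led by Tfe3 (1.25, SE 0.11) and Ulk1 (0.60, SE 0.15), which mTORC1 restrains in lysosome production and autophagy, and 2 were lower, with a median of -0.06. Tfe3 had 85.1 ± 14.7 CPM in irradiated vehicle HSC at 1 h and 35.9 ± 4.70 CPM in the baseline (SD, n = 8 and 15). Of 30 p53 target genes, 21 were higher, 0 lower and 9 not called, with a median of 1.27, led by Gdf15 (9.61, SE 0.35), Pmaip1 (7.11, SE 0.38) and Cdkn1a (6.31, SE 0.17). Lists tied to Ddit4 also had called members: 9 higher and 1 lower of 14 cAMP and CREB targets, 6 higher and 1 lower of 12 glucocorticoid-responsive genes and 7 higher and 1 lower of 18 hypoxia-responsive genes. Against the 8 baseline columns numbered 42 to 70 alone, 0 subunit genes were called, 2 GATOR genes were higher and 1 lower, and 1 PI3K gene was higher and 0 lower.

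At 24 h against the baseline, far more of the pathway was called in irradiated vehicle HSC than at 1 h, as was far more of all genes (23.3% higher and 26.5% lower). Markers of cell identity moved in this contrast too. The 13 HSC markers summed to 2520 to 3520 CPM in irradiated vehicle HSC at 24 h and 3930 to 5550 CPM in the baseline (1 gene higher, 9 lower). The 10 megakaryocyte markers summed to 1120 to 2120 CPM in irradiated vehicle HSC and 520 to 973 CPM in the baseline (6 of 9 tested higher, 0 lower), and of the mast cell and basophil markers 5 of 6 tested were lower. Their part in the members' and the pathway's values was not tested. Of the 11 mTORC subunit genes, 0 were higher and 7 lower, with a median of -0.29 beside -0.06 for all genes, among them Deptor, an inhibitory subunit (-0.82, SE 0.16), and Rptor, the defining mTORC1 subunit (-0.56, SE 0.15). Of the PI3K, Akt and AMPK genes, 3 were higher and 11 lower (median -0.28), with Irs2 at -1.89 (SE 0.31) and Pik3cd at -0.999 (SE 0.14). Irs1 had no read in any of the 8 libraries and 0.368 ± 0.333 CPM in the baseline. Against the 7 baseline columns numbered 79 to 85 alone, 4 subunit genes and 7 of the PI3K list were lower.

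Of the 9 genes in the TSC and Rheb list at 24 h, 5 were higher, led by Tbc1d7, the third TSC subunit (0.55, SE 0.11). In the same list 3 were lower, among them Tsc1 (-0.60, SE 0.19) and Tsc2 (-0.27, SE 0.10), the core of the complex. Ywhab, Ywhae and Ywhaz, which encode neither TSC subunits nor Rheb, averaged 584.5, 504.6 and 765.5 CPM in irradiated vehicle HSC. In the baseline they averaged 500.7, 356.3 and 617.3 CPM. GATOR, KICSTOR, Rag and Ragulator genes split into 9 higher and 8 lower (median -0.13), and mTORC1 substrates into 5 higher and 6 lower (median -0.17). Lamtor4 was higher at 24 h (0.90, SE 0.09), and Ulk1 was lower (-1.33, SE 0.16), at 51.4 ± 12.6 CPM in irradiated vehicle HSC and 129 ± 18.7 CPM in the baseline. Of the p53 targets 25 were higher and 2 lower (median 2.39). FOXO factors and targets gave 1 higher and 12 lower of 16 (median -0.73).

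With dmPGE2 and no radiation, 0 of 11 mTORC subunit genes were called by edgeR against the baseline (4 at an unadjusted p below 0.05, and 2 lower with DESeq2). Of all genes, 5.28% were called higher and 5.82% lower. The TSC and Rheb list gave 1 higher and 1 lower, Txnip (-0.96, SE 0.14). In the GATOR list 0 were higher and 2 lower: Slc38a9, a lysosomal arginine sensor gene, had 12.9 ± 1.49 CPM with dmPGE2 and 25.8 ± 3.91 CPM in the baseline (-1.0, SE 0.15), and Flcn had -0.33 (SE 0.08). Of 7 amino acid transport and leucine sensing genes 3 were higher and 1 lower. Among them Slc3a2, the heavy chain of the leucine transporter, had 377 ± 46.9 CPM with dmPGE2 and 209 ± 20.03 CPM in the baseline (0.85, SE 0.07). The cAMP and CREB list, which holds genes switched on by cAMP signalling, had 10 higher, 1 lower and 3 not called of 14 (median 2.07 beside 0.005 for all genes), with Sik1 at 4.10 (SE 0.27).

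For the other known regulators of Ddit4 in the same contrast, 4 of 12 glucocorticoid-responsive genes were higher and 1 lower (median 0.56), and 5 of 18 hypoxia-responsive genes were higher and 0 lower (median 0.18), led by Vegfa (3.03, SE 0.19). Of 19 ATF4 targets 4 were higher and 2 lower (median -0.03). The p53 targets gave 6 higher and 5 lower of 30 (median 0.02), with Cdkn1a at 3.98 (SE 0.16), Btg2 at 3.22 (SE 0.22), Eda2r at -1.78 (SE 0.37) and Phlda3 at -0.78 (SE 0.19). The CREB and glucocorticoid lists share Per1 and Dusp1, so their counts are not separate results.

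**Figure D5:**
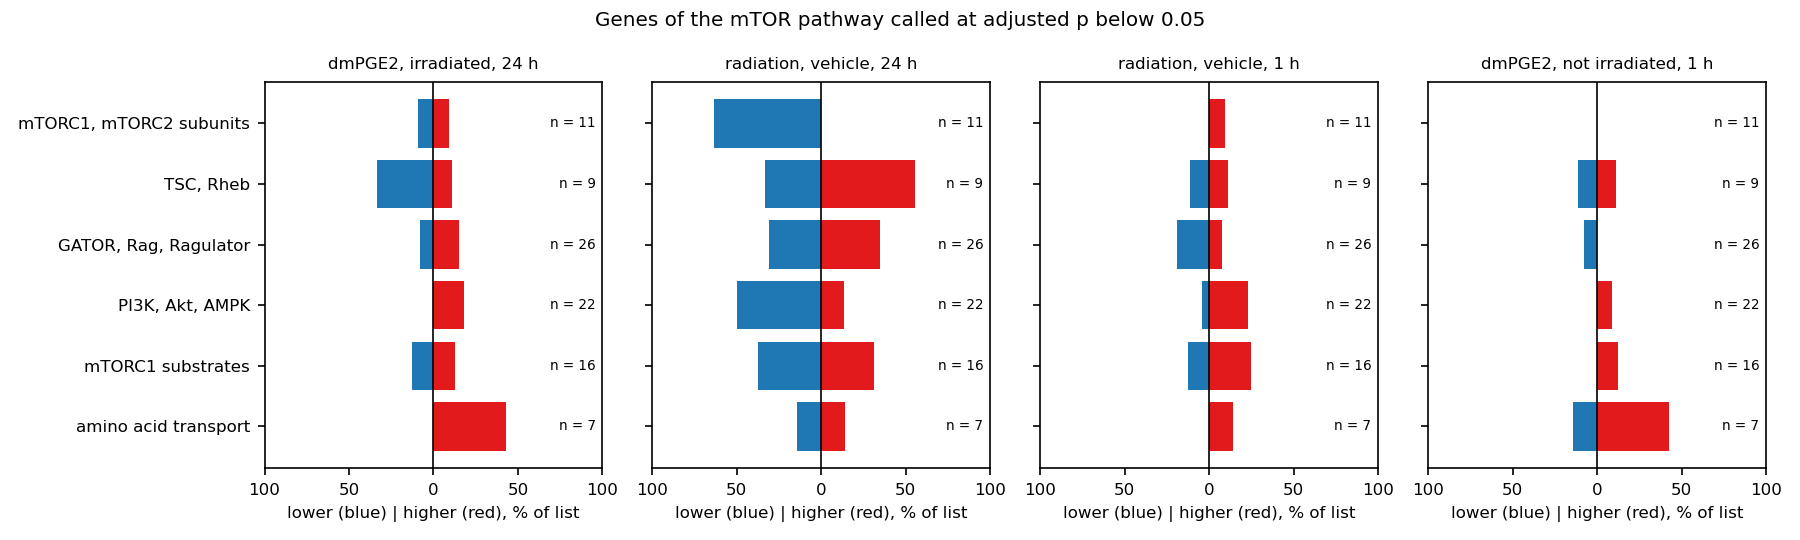
Share of each pathway list called higher (red, right) or lower (blue, left) at an adjusted p below 0.05 in 4 comparisons, with the number of genes measured. Subunit genes are called mostly lower for radiation at 24 h, and for dmPGE2 without radiation the amino acid transport list has the largest share called higher.

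In irradiated HSC at 1 h, dmPGE2 against vehicle gave 2 higher and 1 lower of the 11 mTORC subunit genes, 4 higher and 3 lower of the 26 GATOR genes, 3 higher and 4 lower of the 22 PI3K, Akt and AMPK genes, and 1 higher and 3 lower of the 16 substrates. Those 3 substrates were Tfe3 (-1.03), Ulk1 (-0.94) and Lpin1 (-0.73). Of all genes, 7.04% were called higher and 7.77% lower. Of 30 p53 target genes, 0 were higher and 19 lower in this contrast, with a median of -0.79 beside 0.01 for all genes. Slc38a9 had 12.3 ± 3.599 CPM with dmPGE2 and 28.3 ± 3.78 CPM with vehicle (SD, n = 8 each). For radiation under dmPGE2, edgeR and DESeq2 called 0 genes of the 6 mTOR lists (1 subunit gene, 1 TSC gene, 0 GATOR genes, 2 PI3K genes, 1 substrate and 0 transport genes at an unadjusted p below 0.05), while 7 of 30 p53 targets were higher and 0 lower, led by Gdf15 (4.28, SE 0.42). Only 0.356% of all genes were called higher and 0.0209% lower by edgeR for radiation under dmPGE2.

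At 24 h, dmPGE2 against vehicle gave 1 higher and 1 lower of the 11 mTORC subunit genes, 1 higher and 3 lower of the TSC and Rheb list, 4 higher and 2 lower of the GATOR genes, 4 higher and 0 lower of the PI3K genes, 2 higher and 2 lower of the substrates, and 3 higher and 0 lower of the transport genes. Of all genes, 12.4% were called higher and 11.5% lower in this contrast. Deptor had 67.4 ± 36.1 CPM with dmPGE2 and 32.7 ± 6.24 CPM with vehicle (log2 fold change 1.04, SE 0.18), and Slc3a2 had 276 ± 51.2 CPM with dmPGE2 and 203 ± 17.2 CPM with vehicle (0.45, SE 0.08). Without libraries 5 to 7 of the dmPGE2 group, left out after their values were seen, these 6 lists gave 1 and 0, 0 and 0, 1 and 1, 0 and 0, 0 and 0, and 4 and 0 genes called higher and lower, in that order. In the same contrast 8 of 12 glucocorticoid-responsive, 9 of 16 FOXO and 7 of 14 cAMP and CREB genes were higher and 0 lower with all libraries, and 0, 1 and 0 were higher without libraries 5 to 7. Calls over all genes fell as well, from 1781 higher and 1640 lower to 573 higher and 550 lower.

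Markers of other cells moved with dmPGE2 at 24 h too. The summed level of 13 neutrophil genes was 284 to 972 CPM with dmPGE2 and 86.9 to 599 CPM with vehicle, with 4 genes higher, and that of 10 megakaryocyte genes was 603 to 1790 CPM with dmPGE2 and 1120 to 2120 CPM with vehicle, with 5 of 9 tested genes lower and 1 higher. The summed stromal level was 30.2 to 401 CPM with dmPGE2 and 15.5 to 63.4 CPM with vehicle, with 4 of 8 tested genes higher and 2 of 9 at 0 in all vehicle libraries. HSC markers themselves summed to 3440 to 5260 CPM with dmPGE2 and 2520 to 3520 CPM with vehicle. Their part in the 24 h results was not tested.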

How the data were processed

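Bulk RNA was measured by RNA-seq in 54 libraries of sorted mouse HSC in 6 groups. The authors deposited 1 table of raw read counts per gene, with 24421 genes and an exon length per gene, per the file headers. Per the submitters' processing notes the tools were STAR 2.5.2b, featureCounts and Subread 1.5.1, with the build mm10. Annotation, strandedness and multi-mapping rules: not given in the sources used here. Reads of overlapping or near-identical genes cannot be told apart.

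The counts were filtered with edgeR's filterByExpr (minimum count 10), which left 14320 genes, scaled by TMM and fitted over all 6 groups (48 residual degrees of freedom, common dispersion 0.121). Contrasts were tested with edgeR's quasi-likelihood test (edgeR 4.0.16, limma 3.58.1, R 4.3.3) with Benjamini-Hochberg adjustment over all genes tested and a threshold of 0.05. The scripts were tested on simulated data. CPM are TMM-scaled, and RPKM divide them by the deposited exon length. Alternatives were DESeq2 1.42.0, other scaling and filters, a fit of only the groups compared, a test against a fold change of 1.5, a sex term at 24 h, header tags as a block and libraries left out.

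The 5 genes and the pathway lists were chosen with earlier results of these data known. Of each list, up to 3 called genes per direction with the largest change could be named, and for each member the 5 genes most like it among 10764 genes whose log2 CPM averaged 2 or more. No member was tested in the contrasts that chose it or in differences built on them. Per the labels each library stands for a mouse, and p-values measure the spread between these libraries, taken as independent. Libraries of the same header tag deviated together at 1 h, which the main fit leaves out. Precision rests on totals of 15049364 to 26217041 counts per library.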

Additional observations from a re-analysis of the deposited data

Results flagged for a closer look

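In the groups of 7 or 8 libraries, 7 of 25 sets of values had 1 library far from the others. Chance alone gives about 1 in 20 only for independent sets of normally distributed values. These sets are not independent, since the same libraries recur among the 7 and Sesn1 and Sesn3 had r = 0.67 within groups. Whether 7 is an excess was not tested. Library 5 of irradiated dmPGE2 HSC at 24 h held the highest Sesn1 (436 CPM) and Sesn3 (14.8 CPM) and the lowest Ddit4l (19.1 CPM) of its group. Library 6 of irradiated dmPGE2 HSC at 1 h held the lowest Ddit4 (62.9 CPM) and the lowest Sesn1 (188.0 CPM). Library 3 of irradiated vehicle HSC at 1 h held the lowest Sesn2 (386 CPM) and the highest Sesn3 (16.6 CPM).

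The radiation difference with vehicle was not the same at 24 h as at 1 h for 3 genes by edgeR's test of the difference itself, which, with a shared baseline, is the direct contrast of the irradiated groups. At 24 h minus 1 h it was -1.04 for Sesn2, -1.32 for Ddit4 and 0.92 for Ddit4l on the log2 scale. Sesn2 and Ddit4l were chosen partly for being high in the same vehicle libraries of 1 h, which favours lower values at 24 h. Their p-values are therefore not independent of the choice. The Ddit4l call was lost in edgeR's test against a fold change of 1.5 (adjusted p = 0.251).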

How the results depend on the processing

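Over 585 values of the 5 genes under the alternatives, 566 were counted as unchanged, 3 lost their call and 16 gained one. Tested values counted as unchanged where they kept their side of the threshold. Values given with no test have no threshold, and counted as unchanged where they moved by no more than the mean SD within the groups compared. The sign turned in 14 values, with 0 of them called. They include Ddit4 for dmPGE2 at 24 h, which was -0.09 without libraries 5 to 7. Counts of all genes called fell when the test was against a fold change of 1.5. They were then 326 for radiation with vehicle at 1 h, 1430 for it at 24 h, 184 for dmPGE2 without radiation, 266 for dmPGE2 in irradiated HSC at 1 h, 273 for it at 24 h, 18 for radiation under dmPGE2, 359 and 719 for irradiated dmPGE2 HSC at 1 h and 24 h against the baseline, and 1964 and 904 for time with vehicle and with dmPGE2. The member count for radiation under dmPGE2 was then 0.

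For dmPGE2 at 24 h, a fit of only the groups compared called 1507 genes of all, one with a sex term 1815, and one without libraries 5 to 7 of the dmPGE2 group 1123. With only the groups compared, 3 members were called for dmPGE2 without radiation. With the first 8 baseline columns by header number, 1244 genes were called for radiation at 1 h, and 2 members for dmPGE2 without radiation. With the other 7, 3100 genes were called for irradiated dmPGE2 HSC at 24 h against the baseline. In that contrast 5 members were called without library 5 and 5 without libraries 5 to 7. The cause was not tested.

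Header tags as a replicate block gave 3547 calls for radiation at 1 h, 2529 for dmPGE2 without radiation (3 members), 3421 and 1352 for dmPGE2 in irradiated HSC at 1 h and 24 h, and 95 for radiation under dmPGE2. With the block, for dmPGE2 without radiation, Sesn1 (0.34, adjusted p = 0.00512) and Sesn2 (-0.40, adjusted p = 0.0307) were called, as was Sesn1 in irradiated dmPGE2 HSC at 1 h against the baseline (0.27, adjusted p = 0.0145). Same-tag libraries of different groups deviated together at 1 h, with a median r of 0.279 and 58 of 65 pairs over 0.1. Other pairs had a median of -0.052. At 24 h same-tag pairs did so less (median 0.094, 4 of 8 pairs over 0.1, against -0.006 for other pairs). The labels do not explain the tags, and the main fit was kept without the block. Its p-values therefore leave out what same-tag libraries share. Of 1140 list counts under alternatives 204 moved by over 1.5 times, 95 of them in the test against a fold change of 1.5. Depth limits Ddit4l in the baseline, at 2 to 76 reads a library. The splits of the baseline and the sets without libraries 3, 5, 6 or 5 to 7 were chosen after seeing the data.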
